A study of Mus musculus with 50 samples.

Results

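The genes described here are 9 organic ion transporters of the liver, out of 12185 genes in the expression table: Slc22a5, Slc22a7, Slc22a28, Slc22a30, Slco1a1, Slco1a4, Slco1b2, Slco2a1 and Slco2b1. They were taken by name from the Slc22 and Slco families, and all 9 were found in the table. Another 9 listed genes of these families are in the table as well, and 8 of them had a mean of at least 1. The study sequenced liver RNA from offspring of a cross between chromosome substitution strains, in which C57BL/6J mice carry chromosome 4 or chromosome 6 of the A/J strain. Its aim was to map loci on these 2 chromosomes that act on traits and on gene expression, alone or in pairs. The labels give every one of the 50 libraries the same description: male, adult, liver, F2 animals with A/J-derived chromosomes 4 and 6 on a C57BL/6J background. The study's methods call the animals N2 and describe fasted mice taken soon after weaning. Under that description no animal is homozygous for A/J alleles on either chromosome. The study compared traits between males and females of the cross and ran its scans with and without sex as a covariate. Its text does not state the sex of the sequenced animals, so the label of male was not checked against it. No treatment separates the libraries, and the genotype of each animal was not used here.

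Because the labels name no condition, the only labels that vary are the number of the library and the number of the animal. Library numbers 1 to 30 (n = 28) and 31 to 59 (n = 22) form 2 sets, each starting again from low animal numbers, and what the numbers stand for is not stated. Animal numbers fall into 3 separate runs, a low one (n = 9), a middle one (n = 13) and a high one (n = 28). 2 animal numbers stand on 2 libraries each, so there are 48 numbers for the 50 libraries. The study describes its expression analysis in fewer offspring than the 50 libraries used here. Counts of livers below are counts of libraries, and libraries that share a number may come from the same animal. Values are the authors' normalized counts, scaled to library size (CPM), and the counted reads behind them ran from 11965594 to 29976557 per library with a median of 13620584. A value made of 3 reads, below which a level was not distinguished from 0, lay between 0.0951 and 0.259. Hepatocyte markers were present throughout, 7 of 7 with a summed value between 75110 and 121000, beside 269 to 404 for 10 of 10 endothelial markers and 101 to 236.8 for 8 of 8 stellate cell markers. In whole liver, fewer cells of a type and less RNA per cell cannot be told apart. Library 24 stood apart from the rest in several results given below, and some of these are given with and without it.

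Both families move organic ions across the plasma membrane of hepatocytes, the step by which bile acids, steroid conjugates, hormones and many drugs enter the cell from portal blood before they are metabolized and sent into bile. Proteins of the Slc22 family include the carnitine transporter and the organic anion and organic cation transporters. Those of the Slco family, the organic anion transporting polypeptides, take up larger amphipathic anions without needing sodium. In adult mouse liver several members are known to differ between the sexes under the pattern of growth hormone secretion, Slco1a1 being higher in males and Slco1a4 higher in females. Many sex-dependent liver genes of mice take on their adult level only during puberty.

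The sequences bear on which of these genes can be counted apart, and on what lies in front of genes that moved together or in opposite directions. Slc22a28 and Slc22a30 are neighbouring organic anion transporter genes of a cluster on chromosome 19. Their windows from 250 to 11 bases before the start of transcription (RefSeq, GRCm38.p6) are printed 5′ to 3′, with capitals at the bases where the aligned windows differ.
Slc22a28, chr19:8131993-8132232, minus strand: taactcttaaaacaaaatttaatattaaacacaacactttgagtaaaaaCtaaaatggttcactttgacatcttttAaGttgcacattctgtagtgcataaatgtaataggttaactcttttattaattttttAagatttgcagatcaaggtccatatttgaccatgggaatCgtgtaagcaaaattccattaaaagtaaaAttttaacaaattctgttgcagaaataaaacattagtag
Slc22a30, chr19:8405116-8405355, minus strand: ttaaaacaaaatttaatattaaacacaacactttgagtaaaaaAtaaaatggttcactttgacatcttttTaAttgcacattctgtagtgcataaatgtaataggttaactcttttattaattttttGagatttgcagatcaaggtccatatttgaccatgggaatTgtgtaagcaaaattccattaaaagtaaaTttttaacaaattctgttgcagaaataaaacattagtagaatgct
Over 234 aligned bases 228 were identical (97.4%), and the windows are offset by 6 bases. The coding sequences of both genes (1659 bases, GENCODE M21) were identical at 1639 bases, or 98.8%. Of the 31-base stretches in the annotated transcripts of Slc22a28, 67.0% also occur in transcripts of Slc22a30, and 39.6% of the stretches of Slc22a30 occur in Slc22a28. Reads from such stretches have more than 1 place of origin, so the counts of this pair, and most of all those of Slc22a28, are uncertain. In reads, Slc22a28 amounted to a median of 3.70% of Slc22a30, from 1.06% to 9.47% over the 50 libraries.

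The 3 Slco1 genes lie together on chromosome 6, which segregates in the cross. Their windows are shown because Slco1a1 and Slco1b2 moved together and Slco1a4 moved against them. A link between these sequences and the movement was not tested. Capitals mark, on either strand and at any distance from the start, the TATA box letters TATAAA and the STAT5 letters TTCNNNGAA.
Slco1a1, chr6:141946973-141947212, minus strand: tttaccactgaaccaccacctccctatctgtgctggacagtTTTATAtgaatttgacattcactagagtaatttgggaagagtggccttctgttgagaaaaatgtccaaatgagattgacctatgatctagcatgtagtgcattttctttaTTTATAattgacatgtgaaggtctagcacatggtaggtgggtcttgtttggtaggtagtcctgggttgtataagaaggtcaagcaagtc
Slco1a4, chr6:141856231-141856470, minus strand: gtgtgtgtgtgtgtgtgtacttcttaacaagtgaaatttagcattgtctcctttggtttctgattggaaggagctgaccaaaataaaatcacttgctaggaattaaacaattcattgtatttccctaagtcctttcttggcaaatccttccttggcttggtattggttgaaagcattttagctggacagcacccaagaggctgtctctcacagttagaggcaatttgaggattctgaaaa
Slco1b2, chr6:141629268-141629507, plus strand: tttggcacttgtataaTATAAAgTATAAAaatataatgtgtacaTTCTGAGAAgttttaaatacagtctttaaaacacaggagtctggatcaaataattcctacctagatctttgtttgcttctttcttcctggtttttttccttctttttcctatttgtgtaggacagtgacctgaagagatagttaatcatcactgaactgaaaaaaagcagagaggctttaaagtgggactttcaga
TATAAA was found at 2 places in the window of Slco1a1, at 2 places in that of Slco1b2 and at 1 place in that of Slco2a1, and in 12.1% of 32851 RefSeq windows of this length. TTCNNNGAA was found once in Slco1b2, where the match begins 206 bases before the start, once in the third of 3 windows of Slco2b1, and in 6.77% of all windows. The motifs do not overlap each other in the windows printed. In Slco1b2 both TATAAA matches lie farther from the start than the STAT5 letters. In Slco1a1 both are on the strand opposite to the one printed. A match of letters does not show that a site is used. RefSeq windows were matched by symbol for 8 of 9 members, Slc22a7 being the other. The coding sequence of Slco1a1 was 86.6% identical to that of Slco1a4 and 61.5% identical to that of Slco1b2. Only 4.02% of the 31-base stretches of Slco1a1, 5.03% of Slco1a4 and none of Slco1b2 occur in transcripts of another gene.

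Outside chromosome 6 and the chromosome 19 pair, the members lie apart from each other and on chromosomes that do not segregate in the cross (GENCODE M21, GRCm38). Slc22a5 (ENSMUSG00000018900) spans chr11:53864542-53891660 on the minus strand and Slc22a7 (ENSMUSG00000067144) chr17:46432183-46438457 on the minus strand. Slco2a1 (ENSMUSG00000032548) spans chr9:102988712-103096002 on the plus strand and Slco2b1 (ENSMUSG00000030737) chr7:99657804-99711340 on the minus strand. Slc22a28 (ENSMUSG00000063590) spans chr19:8062209-8131982 and Slc22a30 (ENSMUSG00000052562) chr19:8335371-8405111, both on the minus strand.

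Slco1b2, the hepatocyte-specific transporter of bile acids, bilirubin conjugates and statins, had a lowest value of 321, a median of 614 and a highest of 847 normalized CPM (609.6 ± 113, SD, n = 50). Slco1a1, which takes up bile acids and steroid conjugates, ran from 24.01 through a median of 128 to 280.4 (135 ± 58.2). Slco1a4, which also carries cardiac glycosides, ran from 62.3 through 112 to 210.3 (115 ± 33.4). These 3 genes of 1 chromosomal block thus differed in spread as well as in level, with an 11.7-fold range for Slco1a1 beside 3.38-fold for Slco1a4 and 2.63-fold for Slco1b2.

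Slco2b1, a carrier of steroid sulphates, ran from 71.7 through 92.5 to 118 (91.9 ± 10.8, SD, n = 50). Slco2a1, the prostaglandin transporter, ran from 48.5 through 65.6 to 82.1 (66.5 ± 8.34). Both stayed within a 1.69-fold range over all 50 livers and were the least variable of the 9. Slc22a5, the sodium-dependent carnitine transporter, ran from 20.8 through 32.9 to 56.4 (33.1 ± 6.66), and 35.8% of its 31-base stretches also occur in Slc22a21, the neighbouring carnitine transporter gene. Slc22a30 ran from 7.54 through 26.8 to 61.0 (29.7 ± 12.2). Slc22a7, an organic anion transporter of the basolateral membrane, ran from 1.21 through 7.76 to 18.7 (7.97 ± 4.25), a 15.5-fold range. Slc22a28 ran from 0.142 through 1.10 to 3.73 (1.20 ± 0.708), on 2 to 69 reads per library. Of the 50 libraries, 49 were above 3 reads for Slc22a28, and counting error made up 16.2% of its variance. For the other 8 members counting error made up between 0.269% and 6.48% of the variance.

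**Figure D1:**
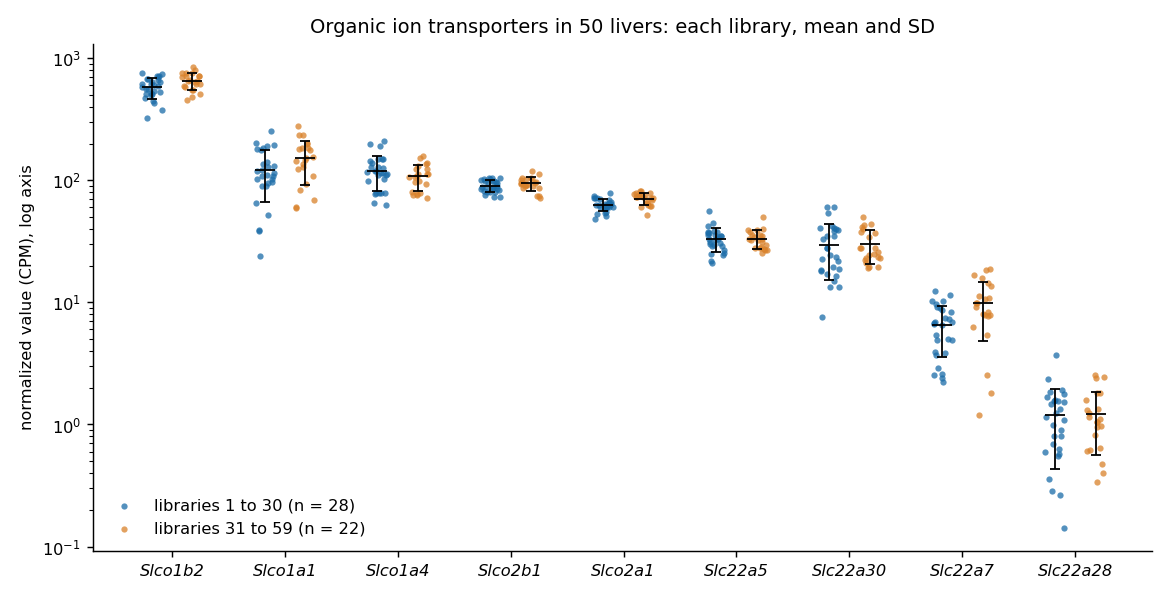
Normalized value of each transporter (CPM, log axis) in each of the 50 libraries, blue for library numbers 1 to 30 (n = 28) and orange for 31 to 59 (n = 22), with the mean and SD of each set in black. The values are not scaled to gene length, and the points of Slc22a7, Slc22a30 and Slco1a1 spread more widely than those of Slco2a1 and Slco2b1.

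Set against the 200 genes nearest in mean value, the coefficient of variation divided the members. Slc22a7 (53.3%) and Slc22a30 (41.1%) each varied more than 99.5% of the genes near them, Slco1a1 (43.2%) more than 99%, Slco1a4 (29.2%) more than 95% and Slc22a28 (58.96%) more than 94%. Slc22a5 (20.1%) stood above 83% and Slco1b2 (18.6%) above 67.5%, while Slco2a1 (12.5%) stood above 53% and Slco2b1 (11.7%) above 45%, near the middle of genes at their level. These percentiles are descriptions and carry no test.

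CPM values of different genes also reflect their length, so levels were ordered per kilobase of exon. On that scale the order was Slco1b2 (123.7 ± 22.9 CPM per kb, SD, n = 50), Slco1a1 (25.5 ± 11.04), Slco1a4 (17.9 ± 5.21), Slco2b1 (15.4 ± 1.81), Slc22a5 (10.8 ± 2.17), Slc22a30 (8.81 ± 3.62), Slco2a1 (4.91 ± 0.616), Slc22a7 (3.79 ± 2.02) and Slc22a28 (0.599 ± 0.353). Slco1b2 was above Slco1a1 in 50 of 50 livers, and Slc22a7 above Slc22a28 in 50 of 50. The middle of the order was less fixed: Slco1a1 exceeded Slco1a4 in 37 of 50 livers, with a mean log2 ratio of 0.41 and an SD of 1.06, and Slco1a4 exceeded Slco2b1 in 33 of 50, with a mean log2 ratio of 0.16 and an SD of 0.46. These 2 pairs of neighbours, and Slc22a5 with Slc22a30 (35 of 50, mean log2 ratio 0.39, SD 0.65) and Slco2a1 with Slc22a7 (40 of 50, 0.60, SD 0.86), differed by less than the spread of their ratio between livers. Slco2b1 was above Slc22a5 in 47 of 50 and Slc22a30 above Slco2a1 in 48 of 50. The transcripts counted per gene were not known, so exon length stands for all annotated exons.

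The first comparison asked whether transporter levels follow the animal number. Slc22a28, Slc22a30 and Slco1a1 fell as the animal number rose, and the other 6 members did not pass the threshold. With all 11436 genes of a mean of at least 1 fitted together in limma, on log2(value + 0.5) with Benjamini-Hochberg adjustment, 14.2% of genes were called, 7.49% rising and 6.73% falling. Against that, 3 of 9 members were called, all falling, and edgeR's quasi-likelihood test on the recovered reads called 4. The median change of the members was -0.16 per 100 animal numbers, beside -0.0012 for all genes tested.

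In the first run of animal numbers Slc22a30 ran from 24.5 through a median of 41.3 to 61.0, in the second from 25.7 through 37.8 to 60.0, and in the third from 7.54 through 21.5 to 40.5. The first 2 runs lay together, and the third was lower with an overlap in range. The 10 lowest animal numbers (24.5 to 61.0) and the 10 highest (7.54 to 23.7) did not overlap for Slc22a30, as for 0.289% of all genes tested, 0.131% in the falling direction. The change was -0.80 on the log2 scale per 100 animal numbers (SE 0.12, limma adjusted p = 4.18e-05). Within library numbers 1 to 30 it was -1.01 (SE 0.19, limma adjusted p = 0.00264) and within 31 to 59 it was -0.58 (SE 0.12, limma adjusted p = 0.0567). No single library decided this call, since leaving out each in turn gave changes between -0.86 and -0.75, the one without library 24 included.

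Slc22a28, whose reads are few and partly shared with Slc22a30, ran from 0.603 through 1.47 to 2.41 in the first run, from 0.802 through 1.68 to 3.73 in the second and from 0.142 through 0.745 to 1.90 in the third. The 3 runs overlapped, with the lowest median in the third. Its change was -0.52 (SE 0.14, limma adjusted p = 0.0114), and it was -0.56 and -0.50 within the 2 sets of libraries, where neither passed the threshold (limma adjusted p = 0.0892 and 0.237).

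Slco1a1 ran from 68.9 through 153 to 280.4 in the first run, from 82.7 through 180.1 to 253 in the second and from 24.01 through 109 to 189.6 in the third. The 10 lowest animal numbers had a median of 167 and the 10 highest 106, with overlapping ranges. The change was -0.54 (SE 0.19, limma adjusted p = 0.0452), close to the threshold, and it was lost on leaving out any of 20 single libraries. Without library 24, which held the lowest value of Slco1a1 (24.01 against 38.1 or more elsewhere), the change was -0.46 and the adjusted p 0.0663. The call for Slco1a1 is therefore reported as not settled by these libraries.

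Slco1a4 went the other way, with a median of 102 in the 10 lowest animal numbers and 129 in the 10 highest, and overlapping ranges. Its change of 0.29 (SE 0.11) had a limma adjusted p of 0.0509. Leaving out any of 11 single libraries, or a pseudocount of 1 (limma adjusted p = 0.0496), brought it past the threshold. Without library 24 it was 0.27 and missed the threshold (limma adjusted p = 0.0763). The highest limma adjusted p on leaving out single libraries was 0.0988. Slco1b2 had medians of 675 and 514 in the 10 lowest and 10 highest animal numbers. Its change of -0.20 (SE 0.074, limma adjusted p = 0.0559) passed without any of 6 single libraries and in edgeR's test (-0.21, adjusted p = 0.0489). Without library 24 it was -0.19 (limma adjusted p = 0.0759), and leaving out single libraries gave limma adjusted p-values up to 0.115. Slc22a5 (-0.16), Slc22a7 (-0.07), Slco2a1 (-0.07) and Slco2b1 (0.10) had limma adjusted p-values of 0.148, 0.880, 0.349 and 0.134.

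**Figure D2:**
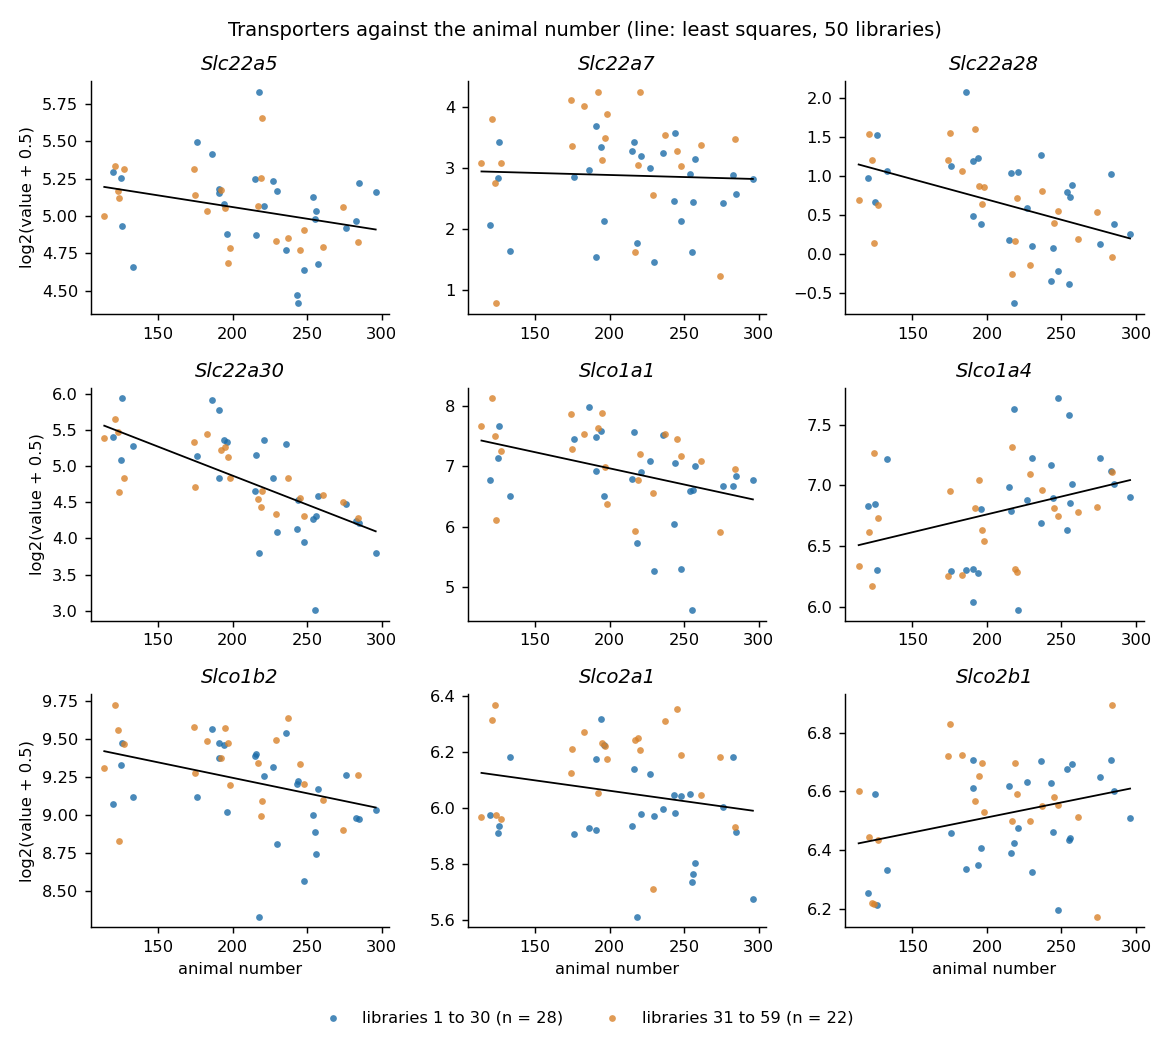
log2(value + 0.5) of each transporter against the animal number, with 1 point per library, blue for library numbers 1 to 30 and orange for 31 to 59, and the least-squares line over all 50. Slc22a30 falls most steeply (-0.80 per 100 animal numbers), Slco1a4 rises, and Slc22a7 is nearly level; the y axes differ between panels.

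A score of sex-dependent liver genes moved with the animal number as well. For each library it subtracts the average z-score of 11 genes known as higher in female liver from that of 14 genes known as higher in male liver. The male genes include Cyp2d9, Elovl3 and Hsd3b5, the female genes include Cyp2b9 and Cux2, and none is a member. It ran from -4.41 in library 24 to 2.12 and fell with the animal number (Pearson r = -0.480 with a permutation p of 0.00039, adjusted p = 0.00136 over 7 scores, and Spearman rho = -0.549 with a permutation p of 6e-05). Without the 2 libraries farthest from the median animal number, which left library 24 in, r was -0.493. The relation without library 24 was not tested. Within the sets of libraries r was -0.405 and -0.549. With this score as a covariate, Slc22a30 still fell with the animal number, by -0.42 (SE 0.086, limma adjusted p = 0.00702). The change of Slc22a28 was then -0.10 (SE 0.11, limma adjusted p = 0.701), and those of Slco1a1 and Slco1a4 turned sign, to 0.10 (adjusted p = 0.704) and -0.03 (adjusted p = 0.902). Slc22a7, nearly level before, then had a change of 0.63 (SE 0.16, limma adjusted p = 0.0296). The stellate cell score rose with the animal number (Pearson r = 0.490 with a permutation p of 0.00031, adjusted p = 0.00136, and Spearman rho = 0.481 with a permutation p of 0.00046). Its r was 0.618 without the same 2 libraries, and 0.337 and 0.582 within the sets. The part of the stellate cell score in the members' changes was not tested.

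The second comparison set library numbers 31 to 59 against 1 to 30. Slco2a1 was higher in the second set and was the only member called, where 13.5% of 11436 genes differed, 7.07% of them upward and 6.42% downward. Its values ran from 48.5 through a median of 62.5 to 79.3 in the first set (63.0 ± 7.22, SD, n = 28) and from 51.9 through 72.9 to 82.1 in the second (70.9 ± 7.66, n = 22), with most of both ranges shared. The difference was 0.17 on the log2 scale (SE 0.048, limma adjusted p = 0.0128). Under the 11 alternatives over the libraries it lay between 0.14 and 0.18, past the threshold in each, and leaving out single libraries gave 0.16 to 0.19. A share of 1 in 9 members is near the background.

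Slc22a7 had a median of 6.67 in the first set (range 2.24 to 12.4) and 9.50 in the second (1.21 to 18.7), a difference of 0.48 (SE 0.22, limma adjusted p = 0.133). It passed in edgeR's test (adjusted p = 0.0448) and without library 34, which held its lowest value. Slco1a1 (0.38, SE 0.20) and Slco1b2 (0.18, SE 0.077) were higher in the second set by amounts that missed the threshold, with limma adjusted p-values of 0.198 and 0.103. With the share of counts in the 10 highest genes as a covariate all 3 passed, Slc22a7 at 0.53 (limma adjusted p = 0.0382), Slco1a1 at 0.43 (limma adjusted p = 0.0450) and Slco1b2 at 0.20 (limma adjusted p = 0.0459). The second set also held the higher median of the sex-dependent score described above, 0.407 against -0.277. With that score as a covariate the differences were 0.26 for Slc22a7, 0.13 for Slco1a1 and 0.11 for Slco1b2 (limma adjusted p = 0.300, 0.424 and 0.230). Whether the relation to the animal number itself differed between the sets was tested as an interaction in limma. None of the 9 members was called (limma adjusted p from 0.654 to 0.990), none had an unadjusted p under 0.05 and none was called by edgeR, beside 0.035% of all genes.

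The third question was which transporters varied together. Slc22a7, Slc22a28, Slc22a30, Slco1a1 and Slco1b2 rose and fell together across the livers, Slco1a4 ran opposite to them, and no pair with Slc22a5 passed the test. Of the 36 pairs, 22 passed a permutation test of Pearson r on log2(value + 0.5) with 100000 draws and Benjamini-Hochberg adjustment over the pairs. The pairs share their libraries and are not independent.

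Slc22a28 with Slc22a30 had the highest r, 0.787 (rho = 0.774), and this is the pair whose reads are partly shared. Next came Slco1a1 with Slco1b2 (r = 0.762, rho = 0.766), Slco1a1 with Slc22a30 (r = 0.759, rho = 0.709), Slco1a1 with Slc22a28 (r = 0.745, rho = 0.726) and Slco1a1 with Slc22a7 (r = 0.723, rho = 0.701). Each of these had a permutation p of 1e-05 for r, the smallest the draws can give, with an adjusted p of 3.6e-05. Without the 2 libraries farthest from the median none of the correlations among the 5 co-varying genes lost the threshold. Slco1a1 thus stood at the centre of the group, with r of at least 0.723 to the 4 others.

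Slco1a4 was lower where the group was higher. Its r was -0.699 with Slc22a30 (rho = -0.689), -0.678 with Slco1a1 (rho = -0.628), -0.648 with Slc22a28 (rho = -0.639), each with permutation p = 1e-05 and adjusted p = 3.6e-05. It was -0.536 with Slc22a7 and -0.530 with Slco1b2 (rho = -0.531 and -0.454, permutation p = 0.0001 and adjusted p = 0.000277 for both). The pair of Slco1a4 and Slco1b2 did not hold in both sets of libraries, as r was -0.697 for library numbers 1 to 30 and -0.136 for 31 to 59. Slco1a1 with Slco1a4 was weaker in the second set too, with r = -0.443 there.

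Slco2a1 had low correlations with 6 members, between 0.319 and 0.427 with the co-varying 5 and -0.331 with Slco1a4. All 6 lost the threshold without the 2 farthest libraries, where r lay between 0.259 and 0.322 with the co-varying 5 and was -0.253 with Slco1a4. Slco2b1 was related to Slc22a7 alone (r = 0.503, permutation p = 0.00016, adjusted p = 0.000411; rho = 0.451), with r = 0.290 within library numbers 1 to 30. For Slc22a5 r ran from -0.244 to 0.187, and its lowest adjusted p was 0.128.

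**Figure D3:**
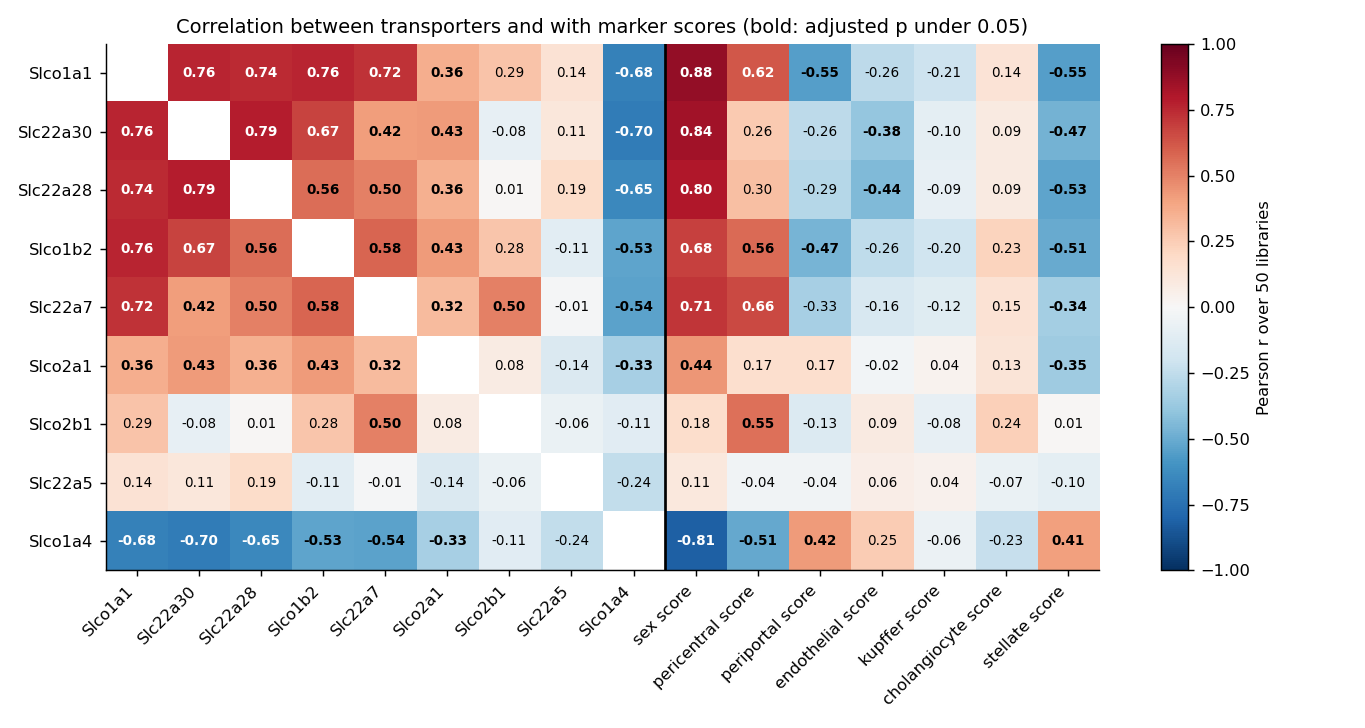
Pearson r over 50 libraries between the transporters (left of the line) and between each transporter and 7 marker scores (right of the line), red for positive and blue for negative, bold where the permutation p adjusted over the family is under 0.05. The upper left block is red (0.42 to 0.79), the row of Slco1a4 is blue in the same columns, and the row of Slc22a5 stays between -0.244 and 0.187 among the transporters.

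The same division appeared against the score of sex-dependent genes, to which 24.6% of genes outside the score were related in limma, 12.4% rising and 12.2% falling. Of the 9 members 7 were called, 6 rising and 1 falling. Slco1a1, known as higher in males, had the highest r, 0.881 (permutation p = 1e-05; rho = 0.845; limma adjusted p = 1.78e-15), followed by Slc22a30 (r = 0.840, rho = 0.794), Slc22a28 (r = 0.801, rho = 0.792), Slc22a7 (r = 0.714, rho = 0.713) and Slco1b2 (r = 0.681, rho = 0.649). Slco1a4, known as higher in females, fell with the score (r = -0.813, permutation p = 1e-05; rho = -0.814; limma adjusted p = 4.59e-11). On the log2 scale 1 SD of the score over the 50 libraries went with a change of 0.65 in Slco1a1, 0.58 in Slc22a7, 0.51 in Slc22a30, 0.47 in Slc22a28, 0.19 in Slco1b2 and -0.33 in Slco1a4.

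These 6 relations held when the 2 libraries with the most distant scores were left out, with r between 0.632 and 0.838 for the rising genes and -0.777 for Slco1a4. Within library numbers 1 to 30 their sizes lay between 0.738 (Slc22a7) and 0.923 (Slco1a1), and within 31 to 59 between 0.465 (Slco1b2) and 0.789 (Slc22a30). Slco2a1 had r = 0.439 (permutation p = 0.00126; rho = 0.357; limma adjusted p = 0.0106), which was 0.290 and missed the threshold without the 2 farthest libraries. Slc22a5 (r = 0.109, rho = 0.226, permutation p = 0.454) and Slco2b1 (r = 0.179, rho = 0.164, permutation p = 0.215) showed no relation past the threshold.

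**Figure D4:**
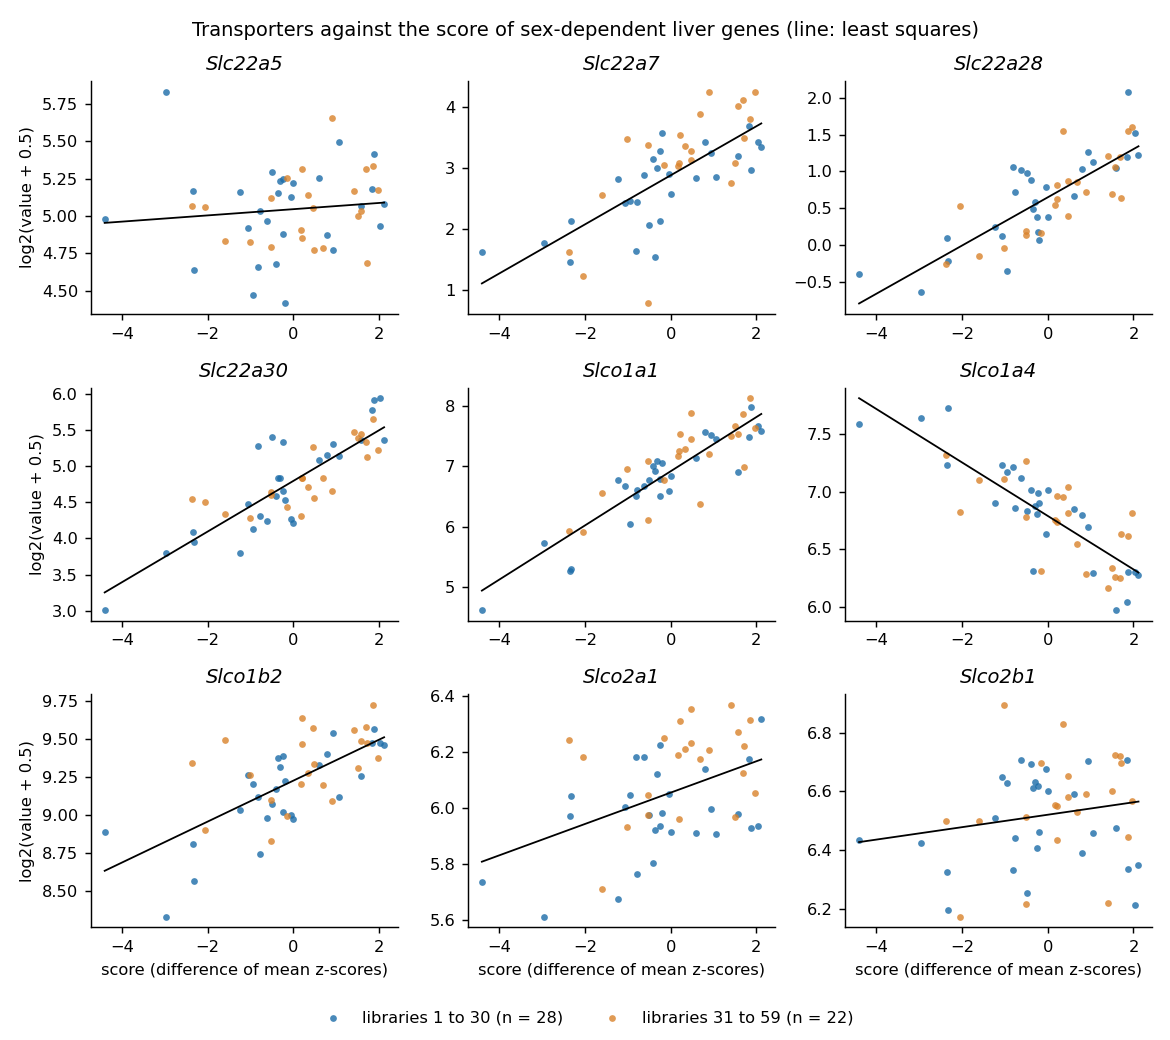
log2(value + 0.5) of each transporter against the score of sex-dependent liver genes (male mean z-score minus female mean z-score), with 1 point per library in the colours of its library set, and the least-squares line. Slco1a1 rises (r = 0.881) and Slco1a4 falls (r = -0.813) over the whole range, and library 24 is the point farthest left in each panel, at -4.41.

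The scores of liver zones and of other cell types were related to fewer members in limma. Each score was fitted alone, and the scores are not independent of each other. Library 45 had the lowest pericentral score (-1.42) and a sex-dependent score of -2.37, while library 24 had -0.414 and -4.41. Relations to these scores apart from the sex-dependent score were not tested. The pericentral score (Glul, Cyp2e1, Oat and others) was related to 5.47% of genes (2.8% rising, 2.67% falling) and to 5 of 9 members in limma, Slc22a7 (r = 0.663, rho = 0.539), Slco1a1 (r = 0.617, rho = 0.479), Slco1b2 (r = 0.564, rho = 0.494), Slco2b1 (r = 0.553, rho = 0.516) and, falling, Slco1a4 (r = -0.510, rho = -0.424), with permutation p-values from 1e-05 to 0.00018. Slc22a30 and Slc22a28 had pericentral r of 0.263 and 0.304 (limma adjusted p = 0.298 and 0.195).

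The periportal score (Cyp2f2, Hal, Sds and others) was related to 2.52% of genes (1.51% rising, 1.02% falling) and to Slco1a1 (r = -0.551, rho = -0.466, permutation p = 3e-05, limma adjusted p = 0.00422) and Slco1b2 (r = -0.469, rho = -0.398, permutation p = 0.0006, limma adjusted p = 0.0316). For Slco1a4 r was 0.425 (rho = 0.340, permutation p = 0.00216, adjusted p = 0.0068 over the 63 relations), which missed the threshold in limma (adjusted p = 0.0546), and r was 0.128 within library numbers 31 to 59.

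The stellate cell score, related to 12% of genes (5.91% rising, 6.06% falling), fell with higher Slco1a1 (r = -0.554, rho = -0.554, permutation p = 5e-05), Slc22a28 (r = -0.531, rho = -0.484, permutation p = 8e-05), Slco1b2 (r = -0.506, rho = -0.475, permutation p = 0.0002) and Slc22a30 (r = -0.472, rho = -0.461, permutation p = 0.00064), and rose with Slco1a4 (r = 0.409, rho = 0.406, permutation p = 0.00308), 5 of 9 members in limma. Slco2a1 (r = -0.354, rho = -0.285) and Slc22a7 (r = -0.339, rho = -0.331) passed the permutation test and missed the threshold in limma, with adjusted p = 0.0786 and 0.0788. The endothelial score, related to 18.3% of genes (8.14% rising, 10.2% falling), was related to Slc22a28 (r = -0.441, rho = -0.438, permutation p = 0.00145) and Slc22a30 (r = -0.384, rho = -0.364, permutation p = 0.00622). Slco2a1, which is known from endothelial cells of other organs, had r = -0.02 with the endothelial score (permutation p = 0.868). No member was called for the Kupffer cell score (1.19% of genes, 1.16% rising; lowest limma adjusted p 0.852) or the cholangiocyte score (none of 11432 genes). Of the 63 relations between members and scores, 24 passed the permutation test with adjustment over all 63.

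The genes whose levels were most like those of each transporter were taken as the 3 with the highest and the 1 with the lowest Pearson r over the 50 livers. They are descriptions, with no test. Slco1a1 was closest to Sult2a8 (r = 0.906), a sulphotransferase of bile acids, and to Ugt3a1 (0.904) and Ugt2b1 (0.896), both glycosyltransferases, and its lowest r was with Aldh1b1 (-0.853). Slco1b2 was also closest to Sult2a8 (0.881), then Nxpe2 (0.834) and Cyp2c50 (0.833). Genes close to Slco1a4 included Idh2 (0.800) and Cyp17a1 (0.766), the latter counted in the sex-dependent score, and its lowest r was with Serpina4-ps1 (-0.799).

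Slc22a30 was closest to Hsd3b5 (0.888), a steroid dehydrogenase of male liver, Aox3 (0.883), an aldehyde oxidase and Ugt2b5 (0.859). Slc22a28 was closest to Srd5a1 (0.809), the steroid 5-alpha-reductase, and Elovl3 (0.807), and then to Slc22a30. Its lowest r was with Cyp17a1 (-0.813). Slc22a7 was closest to the carboxylesterase Ces2c (0.857), Mup1 (0.816) and Cyp7b1 (0.814) and lowest with Cyp2a4 (-0.764).

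The members outside this group had other neighbours. Slc22a5 was closest to Hsdl2 (0.786), Plin2 (0.716), a lipid droplet protein, and Rab30 (0.663), and lowest with Hsd3b3 (-0.667). Slco2a1 was closest to Dync1h1 (0.651), Cyp2f2 (0.639) and Pzp (0.633) and lowest with Cycs (-0.668). Slco2b1 was closest to Olfml1 (0.703), Lgals3bp (0.694) and Lgals8 (0.680) and lowest with Kyat3 (-0.664).

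Chromosome 6 segregates in this cross, so the genes around the Slco1 block were examined. Gene positions are those of GENCODE M21 on GRCm38. Slco1b2 (ENSMUSG00000030236) spans chr6:141629518-141686646 on the plus strand, Slco1a4 (ENSMUSG00000030237) chr6:141805440-141856199 and Slco1a1 (ENSMUSG00000041698) chr6:141907282-141946962 on the minus strand. Between Slco1a4 and Slco1a1 lies Gm30784, a long noncoding RNA gene on the plus strand, at 6.94 ± 2.08 CPM (SD, n = 50). Its r was 0.516 with Slco1a4, 10.2 kb away, and -0.304 with Slco1a1, 32.1 kb away. The counting is not stated to use strand, but these genes do not overlap.

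Among the other genes within 1 Mb, Kcnj8, a potassium channel gene, had r of -0.639 with Slco1a1, 0.557 with Slco1a4 and -0.635 with Slco1b2, and Abcc9, its partner subunit, had -0.457, 0.483 and -0.462. Pyroxd1 (-0.511, 0.414 and -0.473) and Ldhb (-0.467, 0.288 and -0.441) had the same signs, and Cmas had 0.421 with Slco1a1 and -0.276 with Slco1a4. Recql, Gys2 and Golt1b had r between -0.135 and 0.107 with all 3, and Pde3a had -0.287, 0.354 and -0.183. Aebp2, within 1 Mb of Slco1b2 alone, had r = 0.06 with it. Over the 69 chromosome 6 genes within 10 Mb, the median size of r was 0.289 for Slco1a1, 0.253 for Slco1a4 and 0.299 for Slco1b2. For the 505 chromosome 6 genes beyond 10 Mb it was 0.231, 0.184 and 0.253. Over all 11435 genes other than the member itself, those of chromosome 6 included, it was 0.219, 0.182 and 0.224. After the sex-dependent score was regressed out of each gene, the medians within 10 Mb were 0.160, 0.115 and 0.136, beside 0.167, 0.107 and 0.158 over all genes. These correlations are across genes of 1 set of livers, and genes are not independent.

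After the score was removed, Slco1a1 and Slco1b2 still had r = 0.469, while Slco1a1 with Slco1a4 had 0.136 and Slco1a4 with Slco1b2 had 0.05. The highest value within 10 Mb was then that of Dennd5b with Slco1b2, 0.711 at a distance of 7.30 Mb, against 0.741 before. Genes on chromosomes other than 4 and 6 then reached a size of r of 0.642 with Slco1a1, 0.562 with Slco1a4 and 0.781 with Slco1b2. Dennd5b was chosen after its values were seen. Genotypes were not used here, so alleles of A/J and C57BL/6J origin cannot be told apart, and reads were aligned to the C57BL/6J genome only.

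**Figure D5:**
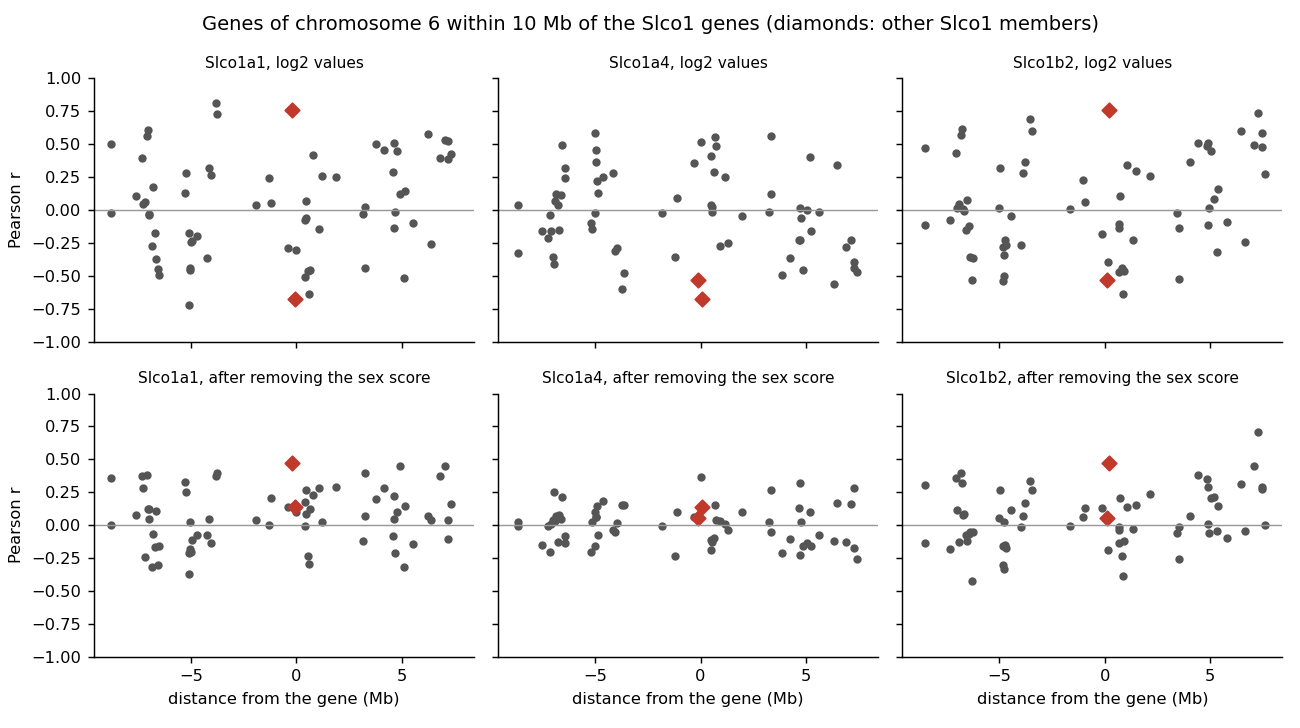
Pearson r of each chromosome 6 gene within 10 Mb with Slco1a1, Slco1a4 and Slco1b2 against its distance in Mb, on log2 values (upper row) and after the sex-dependent score was regressed out (lower row), with red diamonds for the other Slco1 genes. The negative diamonds of the upper row lie at 0.136 and 0.05 in the lower row, and the pair of Slco1a1 and Slco1b2 moves from 0.762 to 0.469.

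Other genes of transport were read from the same fits. Of the 8 other Slc22 and Slco genes tested, such as the organic cation transporter Slc22a3, none was called for the animal number or for the library set by limma or by edgeR, and 1 had an unadjusted limma p under 0.05 in each comparison. Slc22a3 ran from 1.08 to 8.98 (3.52 ± 1.67, SD, n = 50). The median change of the 8 genes per 100 animal numbers was -0.01. Of 14 partner transporters, those that take up bile acids with sodium or export them and other conjugates, 2 rose with the animal number and 1 fell, beside 7.49% and 6.73% of all genes, and edgeR called 3. Slc10a1, the sodium-dependent bile acid transporter, ran from 396 to 641 and rose by 0.24 (SE 0.043, limma adjusted p = 0.000262), Slc47a1, a cation exporter, by 0.15 (SE 0.049, limma adjusted p = 0.0339), and Abcc2, the canalicular exporter of conjugates, changed by -0.28 (SE 0.081, limma adjusted p = 0.0171). Between the sets of libraries 3 of 14 were called, beside 13.5% of all genes, and edgeR called 2. Abcc3, a basolateral exporter, was higher in the second (209 ± 29.4, SD, n = 28, against 244.6 ± 35.2, n = 22, limma adjusted p = 0.0101), as was Atp8b1, and Slc47a1 was lower.

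Of 18 regulators of transporter genes tested, 6 were called for the animal number, 2 rising and 4 falling, beside 14.2% of all genes, and edgeR called 6. Ghr, the growth hormone receptor, changed by -0.37 (SE 0.071, limma adjusted p = 0.000528), Nr0b2, a repressor of bile acid synthesis, by -0.60 (SE 0.19, limma adjusted p = 0.0270) and Hnf4a, a hepatocyte transcription factor, by -0.23 (SE 0.074, limma adjusted p = 0.0308), and the other falling gene was Nr1i3, a xenobiotic receptor. Stat5a, a growth hormone signal transducer, rose by 0.22 (SE 0.071, limma adjusted p = 0.0309). Stat5b was called in neither comparison. For the library sets 2 of 18 were called, beside 13.5% of all genes, and edgeR called 1. These were Rxra and Ghr, higher in the second set (limma adjusted p = 0.0356 and 0.0470).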

How the data were processed

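The data are liver RNA-seq of 50 libraries. Per the study's methods and the processing notes, the authors trimmed reads (Trimmomatic in the methods, Trim Galore in the notes), used HISAT2 for alignment (GRCm38.p5) and HTSeq 0.11.1 for gene counts, removed low genes and normalized with edgeR. The authors deposited 1 normalized signal per gene and library, on a CPM scale whose columns sum to between 886171 and 1120647. Dividing by the value of 1 read (0.0317 to 0.0864) gave whole reads for 100% of values within 0.01 of a read. Intervals and floors (3 reads) cover counting error only.

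The 9 members, the gene lists and the naming rule were chosen with earlier results of these data known. The rule named, beside the members, their 3 highest and 1 lowest correlated genes, at most 3 called genes per direction of each list, and chromosome 6 genes within 1 Mb of an Slco1 gene. Some genes that the rule names are not reported here. Fits used limma 3.58.1 in R 4.3.3 on log2(value + 0.5), for 11436 genes with a mean of at least 1, 2-sided, with a threshold of 0.05. The pseudocount understates changes of low genes such as Slc22a28. Nothing says that libraries sharing an animal number are separate animals, so p-values measure the spread between libraries. Correlations used 100000 permutations, 2-sided. Scores are mean standardized log2 values. The animal number fits recovered changes planted in simulated data, where all genes had the same dispersion. Those changes were larger than any member's change over all libraries, and the changed genes had higher means than Slc22a28. The sensitivity of the fits for the members was therefore not tested. Alternatives used edgeR 4.0.16 on recovered reads, DESeq2 1.42.0 size factors, other pseudocounts and filters, covariates, and libraries left out. Fits of the animal number within each library set and limma fits of the scores were chosen after seeing the data. Positions and transcripts came from GENCODE M21, promoter windows from RefSeq (GRCm38.p6). Python 3.11.15 was used. Genotypes were not used here.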

Additional observations from a re-analysis of the deposited data

How the results depend on the processing

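The calls of Slc22a30 for the animal number and of Slco2a1 for the library set held under all 11 alternatives over the whole set of libraries. Other calls did not. The share of genes related to the animal number, 14.2%, was 1.72% with the sex-dependent score as a covariate, 9.07% within library numbers 1 to 30 and 0.132% within 31 to 59, and leaving out single libraries gave 10.9% to 15.998%. The share for the library sets, 13.5%, was 7.77% with counted reads as a covariate and 11.2% to 21.3% on leaving out single libraries, the highest without library 44. For the interaction, 4 genes became 1 with edgeR, 2 with counted reads, 0 with the share of the 10 highest genes, 9 with the sex-dependent score, 2 without the 4 libraries sharing animal numbers, 2 without library 24, and 1 to 14 on leaving out single libraries. The cause was not tested.

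For the members, Slc22a7 changed sign to 0.055 with the share of the 10 highest genes, 0.63 with the sex-dependent score, 0.024 with library set as a covariate, and 0.042 and 0.0037 within the sets, with -0.23 to 0.0198 on leaving out single libraries (library 57 turns it). With the sex-dependent score Slco1a1 was at 0.10, Slco1a4 at -0.027 and Slco2a1 at 0.0026. Slco1a1 also missed the threshold with the share of the 10 highest genes (-0.42), without the 4 libraries sharing animal numbers (-0.50), without library 24 (-0.46) and with library set as a covariate (-0.48).

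Of 36 pairs of members, 22 passed, and 9 did within library numbers 31 to 59, where there are fewer libraries. Of 63 relations to scores, 24 passed, and 10 did in that set. Without library 24, 4 pairs and 2 relations to scores lost the threshold, each of the pairs with Slco2a1. Means moved by less than 1 SD. No paired analysis was possible because all libraries belong to 1 group. Depth limits Slc22a28 most, at a median of 16 reads.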
